A study of Homo sapiens with 4 samples.

Results

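TRAFD1, XAF1 and the 7 TRAF genes, TRAF1 to TRAF7, were followed in Caco-2 cells, a human colorectal carcinoma line that serves as a model of the intestinal epithelium. The 9 genes were taken by symbol, as a family, and all 9 had a row among the 37515 Ensembl genes of the count table. RNA-seq libraries were made from cells grown for 15 days on transwells, 2 from unstimulated cells at 0 h that received medium alone and 2 from cells that received 60 ng/ml IFNγ in the basal compartment for 3 h. No medium control at 3 h is among the libraries, so IFNγ and the 3 h that passed cannot be told apart, and all 4 libraries come from 1 cell line and are labelled wild type. The labels number the libraries of each condition 1 and 2 without saying whether these were separate cultures, so the p-values below measure the spread between these libraries, which may be technical.

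TRAF proteins are cytoplasmic adaptors, most of them RING-type ubiquitin ligases, that bind the tails of TNF receptor family members or the adaptors of interleukin-1 and Toll-like receptors and pass the signal on to NFκB and MAP kinases. TRAFD1, also known as FLN29, carries a TRAF-type zinc finger without the rest of a TRAF protein and is known as a brake on innate immune signaling. XAF1, a zinc finger protein of the same type, binds the caspase inhibitor XIAP and is best known as an interferon-inducible promoter of cell death. In the intestinal epithelium these pathways set how a cell answers TNF, bacterial products and interferons.

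Promoter sequences of 8 of the 9 genes were matched by symbol in the RefSeq promoter table (GRCh38.p14), which gives 250 bases before and 50 after each annotated start. TRAFD1 was the gene without an entry, so the counts of matches below do not cover it. The other 8 genes held 13 windows in all. Both strands were searched for TTCNNNGAA, the GAS element known from promoters of IFNγ-induced genes, for the interferon-stimulated response element known from promoters of type I interferon-induced genes (GAAA, any 2 bases, GAAA), and for a κB element bound by NFκB (GGG, any 3 bases, TTCC). A GAS match was found in 0 of the 13 windows, and in 7.66% of the 35116 promoter windows of the table. A response element match was found in 0 of the 13 and in 3.57% of all windows. A κB match was found in 1 window, that of TRAF3, and in 6.52% of all windows. The TRAF3 match began at position -33 from the start on the plus strand, and it is in capitals in the sequence of chr14:102777199-102777498 (plus strand). The promoter of TRAF4, the TRAF gene that rose most clearly below, lies at chr17:28743761-28744060 (plus strand). The XAF1 window at chr17:6755796-6756095 (plus strand) is shown because XAF1 is known as an interferon-inducible gene. Neither of these held a match to the 3 motifs as spelled here, which says only that those letters are not in these windows.
TRAF3: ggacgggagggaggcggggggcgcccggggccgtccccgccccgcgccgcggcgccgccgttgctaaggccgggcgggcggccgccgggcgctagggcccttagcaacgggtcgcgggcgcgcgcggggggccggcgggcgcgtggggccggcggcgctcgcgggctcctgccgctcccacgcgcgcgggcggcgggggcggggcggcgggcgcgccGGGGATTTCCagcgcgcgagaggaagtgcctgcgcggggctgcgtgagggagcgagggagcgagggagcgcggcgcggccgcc
TRAF4: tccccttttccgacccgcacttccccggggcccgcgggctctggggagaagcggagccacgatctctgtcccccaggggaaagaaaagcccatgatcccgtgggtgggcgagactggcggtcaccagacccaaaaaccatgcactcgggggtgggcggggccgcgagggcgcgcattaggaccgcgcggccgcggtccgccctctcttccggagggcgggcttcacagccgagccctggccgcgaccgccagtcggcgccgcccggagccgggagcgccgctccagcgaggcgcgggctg
XAF1: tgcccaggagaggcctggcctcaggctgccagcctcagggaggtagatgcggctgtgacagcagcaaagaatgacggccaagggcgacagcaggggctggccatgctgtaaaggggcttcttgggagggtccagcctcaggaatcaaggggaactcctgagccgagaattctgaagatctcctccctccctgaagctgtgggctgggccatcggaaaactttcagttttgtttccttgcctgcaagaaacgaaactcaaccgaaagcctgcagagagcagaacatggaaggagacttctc

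The libraries held 7171455 to 10365346 counts, replicate 1 being the deeper in both conditions, so that 1 CPM (counts scaled to a common library size by the TMM method) stood for 7.14 to 10.3 counts. A list of 10 IFNγ-induced genes served as a check of the labels. Like the other lists, it was chosen with earlier results of these data known. Of these 10 genes, 9 were tested. All 9 were higher in both same-numbered pairs of libraries, as were 39.3% of all tested genes. By the edgeR call rule given below, 8 of the 9 were called higher, beside 2.88% of all tested genes. All 7 epithelial markers were present with at least 1263 counts in every library. Their summed level was 5804 and 6258 CPM in unstimulated cells and 6950 and 7769 CPM after IFNγ, and the part of this shift in the results below was not tested. The 7 did not move alike, with log2 fold changes from -0.50 to 1.20. At an edgeR adjusted p-value under 0.05, 3 were higher and 1 lower, beside 9.02% and 11.0% of all tested genes. The 6 markers of other cell types with a row (PECAM1 was not matched) summed to 195 and 103 CPM before and 180 and 136 CPM after IFNγ. These ranges overlap, and replicate 1 was the higher in both conditions. Most of that was COL1A1 in each library, while the leukocyte marker PTPRC had at most 2 counts in any library.

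Of the 9 genes, 8 passed the filter on low counts and were tested, and TRAF1 did not pass. A gene was called when its Benjamini-Hochberg adjusted p-value from edgeR's quasi-likelihood test over all 14820 tested genes was under 0.05 and its absolute log2 fold change was above 1. Below, "rose" and "fell" are used for genes whose adjusted p-value was under 0.05, whether or not the fold change threshold was passed. In bulk RNA, fewer cells and less RNA per cell cannot be told apart. TRAFD1 alone was called, upward, which makes 1 of 8 tested members, against 7.28% of all tested genes called in either direction, 2.88% higher and 4.40% lower. Without the fold change threshold TRAFD1 and TRAF4 passed, both upward, against 20.0% of all tested genes in either direction, 9.02% higher and 11.0% lower. DESeq2, whose adjusted p-values covered 6 of the 8 members, also called TRAFD1 alone, against 7.67% of the genes for which it gave one. No member was called lower by edgeR, and 0 were called lower by DESeq2. Members at an unadjusted p-value from edgeR under 0.05 were 2 higher (TRAFD1 and TRAF4) and 1 lower (TRAF5). Over the 8 members the median log2 fold change stood at 0.05, beside -0.01 over all tested genes. The CPM values of the conditions did not overlap in 5 of the 8, against 62.4% of all tested genes. TRAFD1 and TRAF4 were higher in both IFNγ libraries (31.6% of all tested genes), and TRAF5, TRAF6 and TRAF7 were lower in both (30.8%).

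**Figure D1:**
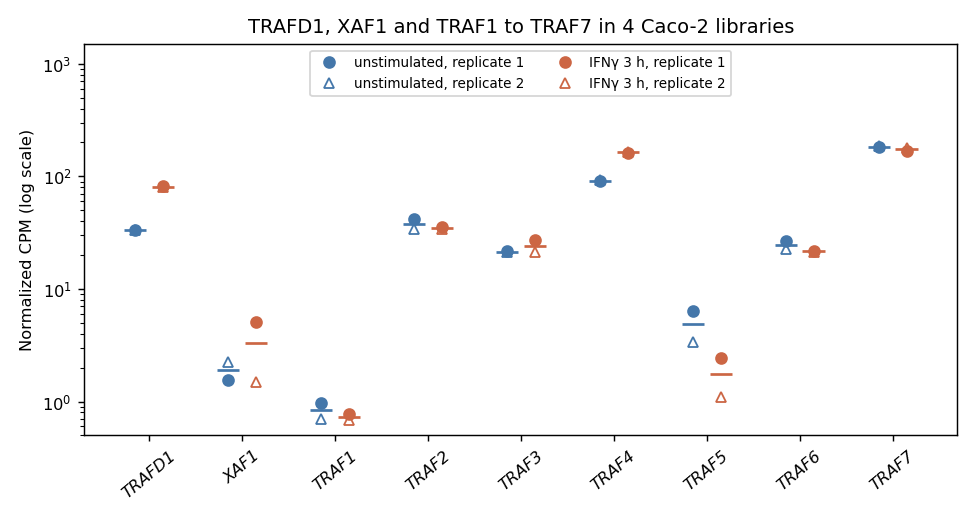
Normalized CPM (log scale) of the 9 genes in each library, blue for unstimulated cells and orange for 3 h of IFNγ, filled circles for replicate 1 and open triangles for replicate 2, with a bar at each mean (n = 2). TRAFD1 and TRAF4 stand clearly higher after IFNγ, TRAF5 stands lower with a wide spread, and XAF1 is split between the IFNγ libraries.

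TRAFD1 (ENSG00000135148, chromosome 12 of GRCh37, 112563342 to 112591408, plus strand) had 33.2 and 33.6 CPM in unstimulated cells and 82.0 and 80.0 CPM after IFNγ. The replicates of each condition lay close together and far from the other condition. The fold change was 2.42, a log2 fold change of 1.28 with a 95% confidence interval of 0.99 to 1.56 (adjusted p = 0.00145), so the interval reached just under the fold change threshold. Among all tested genes it stood at the 97.9 percentile. No annotated antisense exon overlaps its exons.

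The genes whose pattern over the 4 libraries was nearest to that of TRAFD1 were SLC20A1, RAB5IF, ZNF622, SGK1 and ZNF786. Likeness was measured as the Euclidean distance between log2 CPM values after subtracting each gene's mean over the 4 libraries. It was 0.0423 for SLC20A1, a phosphate transporter, and 0.0567 for SGK1, a kinase induced by serum and glucocorticoids. With 4 libraries in 2 conditions, a short distance means a similar fold change and little more, and SLC20A1 went from 102 ± 3.01 to 250 ± 7.21 CPM (SD, n = 2).

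XAF1 (ENSG00000132530, chromosome 17 of GRCh37, 6658766 to 6678966, plus strand) was low in every library. It had 16 counts in each unstimulated library, and 52 and 11 counts in the IFNγ libraries. On the CPM scale these were 1.56 and 2.24 before and 5.06 and 1.501 after IFNγ. Replicate 1 of IFNγ was the highest of the 4 libraries and replicate 2 the lowest, so the conditions overlapped. The fit gave XAF1 a log2 fold change of 0.86 with a standard error of 0.57, a 95% confidence interval of -0.48 to 2.20 and an adjusted p-value of 0.327. Replicates numbered 1 gave 1.57 and replicates numbered 2 gave -0.51. Without replicate 1 of IFNγ the log2 fold change was -0.32 (adjusted p = 0.781), and without replicate 2 of IFNγ it was 1.41 (adjusted p = 0.0334, from a fit with infinite prior degrees of freedom), so 1 library decided its direction. The antisense gene PRAL overlaps 38.3% of the annotated exon bases of XAF1, and the strand setting of the counting is not given in the sources used here, so reads of the pair may not be told apart. The nearest patterns to XAF1, likewise among genes of few counts, were those of MIR17HG, SAMD9, ARL14, RPL36A and FTLP14, at distances of 0.294 to 0.532. XIAP, the partner for which XAF1 is named, had 66.0 ± 0.831 CPM before and 69.1 ± 2.48 CPM after IFNγ (SD, n = 2; log2 fold change 0.06, adjusted p = 0.736).

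**Figure D2:**
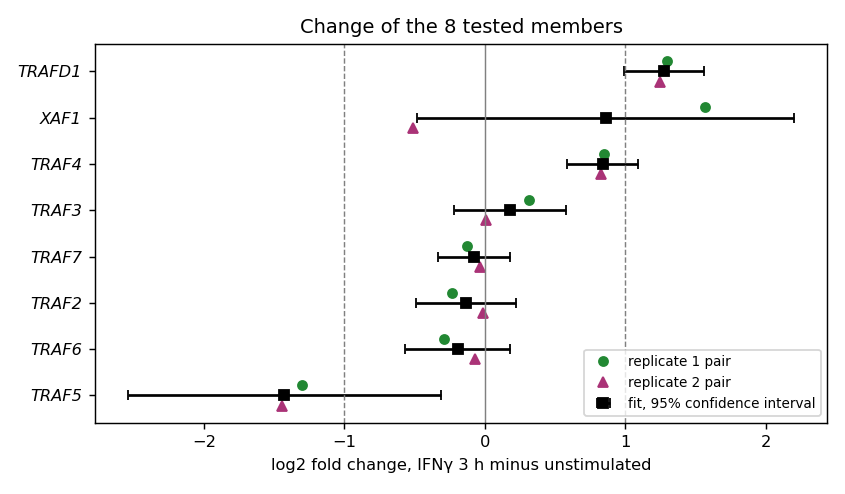
Log2 fold change after 3 h of IFNγ for the 8 tested genes, with black squares and bars for the fit and its 95% confidence interval, green circles for the replicate 1 pair and purple triangles for the replicate 2 pair, and dashed lines at -1 and 1. TRAFD1 (1.28) and TRAF4 (0.84) lie above 0 in both pairs, TRAF5 (-1.43) lies below 0 in both, and the pairs of XAF1 fall on either side of 0.

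TRAF2 and TRAF5, with TRAF1, are the members best known for work at the receptors for TNF, CD40 and lymphotoxin. TRAF2 (ENSG00000127191), which brings the cIAP ubiquitin ligases to TNF receptors, had 41.6 and 34.2 CPM in unstimulated cells and 35.3 and 33.8 CPM after IFNγ. The conditions overlapped. TRAF2 had a log2 fold change of -0.13, with a 95% confidence interval of -0.49 to 0.22 (adjusted p = 0.568), and without replicate 1 of the unstimulated cells it was 0.02.

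TRAF5 (ENSG00000082512, chromosome 1 of GRCh37, 211499957 to 211548288, plus strand), a close relative of TRAF3 that acts beside TRAF2, had 65 and 24 counts in unstimulated cells and 25 and 8 after IFNγ. In CPM these were 6.33 and 3.36 before and 2.43 and 1.09 after. Each IFNγ library was lower than both unstimulated libraries, but within each condition replicate 1 was far above replicate 2. Its log2 fold change was -1.43, the largest in size of the 8, with a 95% confidence interval of -2.54 to -0.31 and an adjusted p-value of 0.0743, so TRAF5 was not called. Replicates numbered 1 gave -1.30 and replicates numbered 2 gave -1.44. Without replicate 1 of the unstimulated cells the log2 fold change was -0.88 (adjusted p = 0.398), and without replicate 1 of IFNγ it was -2.17 (adjusted p = 0.0304), which would be called. It was called likewise without replicate 2 of the unstimulated cells (-1.77, adjusted p = 0.0195). Without replicate 2 of IFNγ it was -1.04 (adjusted p = 0.128). With the replicate number as a block TRAF5 was called lower, in a fit that called 6.05% of all tested genes lower and 3.32% higher.

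TRAF1 (ENSG00000056558), which lacks the RING finger of the other receptor-binding members and is known as an NFκB-induced gene of lymphoid cells, was close to the limit of detection. It had 10 and 5 counts in unstimulated cells and 8 and 5 after IFNγ, or 0.97 and 0.70 CPM before and 0.78 and 0.68 CPM after. The conditions overlapped. Without a filter on low counts the log2 fold change was -0.19 with a standard error of 0.67, so that a small change of TRAF1 was not detectable at this depth.

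TRAF3 (ENSG00000131323), which keeps the kinase NIK low in resting cells and links Toll-like and RNA sensors to type I interferon, had 21.6 and 21.2 CPM in unstimulated cells. After IFNγ it had 26.9 and 21.3 CPM, 1 library above the unstimulated range and 1 within it. TRAF3 had a log2 fold change of 0.18, with a 95% confidence interval of -0.22 to 0.58 (adjusted p = 0.499). Without replicate 1 of IFNγ it was -0.02, so its sign rested on that library.

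TRAF4 (ENSG00000076604, chromosome 17 of GRCh37, 27071029 to 27077974, plus strand) is a TRAF of epithelia that is found at cell junctions and is often raised in carcinomas. It had 90.4 and 92.3 CPM in unstimulated cells and 163 and 164 CPM after IFNγ. The spread within a condition was small beside the gap between them. TRAF4 rose by a log2 fold change of 0.84, a fold of 1.79, with a 95% confidence interval of 0.58 to 1.09 (adjusted p = 0.0035), and it stayed below the fold change threshold. Its log2 fold change stood at the 94.5 percentile of all tested genes and was 0.85 and 0.83 in the 2 pairs. Antisense lncRNAs overlap 17.0% of its annotated exon bases.

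TRAF6 (ENSG00000175104), the ubiquitin ligase that carries interleukin-1 and Toll-like receptor signals to the kinase TAK1, had 26.8 and 22.4 CPM in unstimulated cells and 21.9 and 21.3 CPM after IFNγ. The values of TRAF6 did not overlap, but the unstimulated libraries differed from each other by more than replicate 2 differed from the IFNγ libraries. Its log2 fold change was -0.19 with a 95% confidence interval of -0.57 to 0.18 (adjusted p = 0.435). TRAF6 has a GC content of 41.2%, and the log2 fold change over the 14518 tested genes with an annotated sequence rose with GC content (Spearman rho = 0.431 across genes, which are not independent replicates). Once a trend on GC content and the length of the longest transcript was taken out, TRAF6 had a log2 fold change of 0.20, of the opposite sign (adjusted p = 0.438). The same removal gave 1.10 for TRAFD1, 0.64 for TRAF4, -1.21 for TRAF5 and 1.06 for XAF1 (adjusted p = 0.205). TRAF2 moved from -0.13 to -0.37 (adjusted p = 0.125) and TRAF7 from -0.08 to -0.30 (adjusted p = 0.174), both further below 0. TRAF3 stood at 0.16.

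TRAF7 (ENSG00000131653), which has WD40 repeats where the other members have the TRAF domain, was the most abundant of the 9 in unstimulated cells. It had 183 and 185 CPM there, and 168 and 180 CPM after IFNγ. All 4 libraries lay within a narrow range, although both IFNγ values were below both unstimulated ones. TRAF7 had a log2 fold change of -0.08, with a 95% confidence interval of -0.34 to 0.18 (adjusted p = 0.643). The antisense gene CASKIN1 overlaps 21.2% of its annotated exon bases.

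**Figure D3:**
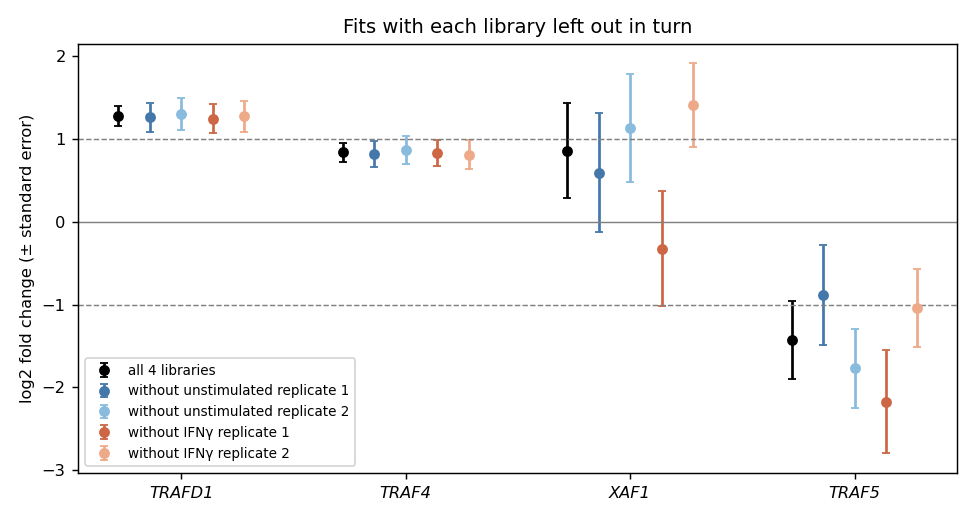
Log2 fold change of TRAFD1, TRAF4, XAF1 and TRAF5 with all 4 libraries (black) and with each library left out in turn, with bars for the standard error and dashed lines at -1 and 1. TRAFD1 stays between 1.25 and 1.30 and TRAF4 between 0.81 and 0.87, while XAF1 runs from -0.32 to 1.41 and TRAF5 from -2.17 to -0.88.

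Levels of different genes were compared as CPM per kilobase of annotated exon. In unstimulated cells the order was TRAF7 (41.0 ± 0.289, SD, n = 2), TRAF4 (20.0 ± 0.304), TRAF2 (10.3 ± 1.43), TRAFD1 (8.57 ± 0.0763), TRAF6 (3.03 ± 0.379), TRAF3 (1.80 ± 0.0274), TRAF5 (0.537 ± 0.233), XAF1 (0.287 ± 0.0731) and TRAF1 (0.187 ± 0.0432). Neighbours in this order did not overlap between their libraries, but the gaps from TRAF2 to TRAFD1, from TRAF5 to XAF1 and from XAF1 to TRAF1 were each less than 2 of the larger SD. After IFNγ TRAF7 (38.7 ± 2.03) and TRAF4 (35.8 ± 0.161) stood next to each other, also apart by less than 2 SD. TRAFD1, at 20.8 ± 0.370 CPM per kilobase, now stood above TRAF2, at 9.43 ± 0.284. TRAF6 (2.66 ± 0.0522) and TRAF3 (2.03 ± 0.337) were apart by less than 2 SD. XAF1 (0.496 ± 0.380), TRAF5 (0.195 ± 0.105) and TRAF1 (0.163 ± 0.0152) overlapped with their neighbours at the bottom of the order.

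The genes around the TRAF proteins were followed by lists of receptors, ligands, adaptors and ubiquitin partners. The counts of these lists, and of the domain lists further below, are to be read beside the shares over all tested genes. By edgeR 2.88% were called higher and 4.40% lower, and 9.02% rose and 11.0% fell without the fold change threshold. DESeq2 called 7.67% in either direction, and no such share is given for unadjusted p-values. Of 29 receptors of the TNF, interleukin-1 and interleukin-17 families, 18 were tested, 3 were called higher and 0 lower by edgeR, and 6 rose and 1 fell without the fold change threshold. DESeq2 called 3 higher and 0 lower, and 7 were higher and 2 lower at an unadjusted p-value from edgeR under 0.05. The median log2 fold change of the tested receptors was 0.24. TNFRSF1A, the main receptor for TNF, had 87.2 and 96.1 CPM in unstimulated cells and 255 and 272 CPM after IFNγ, with a log2 fold change of 1.52 ± 0.12 (SE) and an adjusted p-value of 0.000687. TNFRSF1B, the second TNF receptor, had 12.1 and 14.4 CPM before and 36.9 and 40.1 CPM after (log2 fold change 1.54, adjusted p = 0.00181). TNFRSF12A, the receptor for TWEAK, rose most, from 6.82 and 7.71 CPM to 43.8 and 59.1 CPM (log2 fold change 2.83, adjusted p = 0.000629). The conditions were far apart for all 3 of these receptors, which bind TRAF proteins directly or through TRADD.

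Of 18 TNF family ligands, 5 were tested, and TNFSF4, the OX40 ligand, was called lower while 0 were called higher by edgeR or DESeq2. Ligands at an unadjusted p-value from edgeR under 0.05 were 0 higher and 2 lower. The median of the 5 was -0.89 on the log2 scale, and 4.40% of all tested genes were called lower by edgeR. TNFSF4 had 11.8 and 13.2 CPM in unstimulated cells and 5.35 and 6.82 CPM after IFNγ (log2 fold change -1.04, standard error 0.23, adjusted p = 0.0186). Its log2 fold change was -0.87 without replicate 1 of IFNγ (adjusted p = 0.0521), -0.95 without replicate 2 of the unstimulated cells (adjusted p = 0.0451) and -0.71 with the GC and length trend removed (adjusted p = 0.0678), and it was called in none of these. TNFSF10, the death ligand TRAIL and the ligand with the highest mean CPM over the 4 libraries, had 72.9 and 69.4 CPM before and 106 and 76.7 CPM after IFNγ (log2 fold change 0.37, adjusted p = 0.168). TNF itself had at most 1 count in any library and LTA had 0.

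Of 32 adaptors and partner kinases, 30 had a matched row and 29 were tested. By edgeR 4 of them were called higher and 0 lower, with 5 higher and 9 lower at an unadjusted p-value under 0.05. By DESeq2 also 4 were called higher and 0 lower. Called genes made up 13.8% of the 29 by edgeR, beside 7.28% of all tested genes in either direction. Without the fold change threshold 5 rose and 4 fell, beside 9.02% and 11.0% of all tested genes. The median log2 fold change was -0.04. MAP3K14, which encodes NIK, the kinase that TRAF3 keeps low, had 12.2 and 11.5 CPM in unstimulated cells and 41.8 and 47.2 CPM after IFNγ. On the log2 scale MAP3K14 rose by 1.91 ± 0.16 (SE), with an adjusted p-value of 0.000894, beside 0.18 for TRAF3. Both are RNA values, and the level of the NIK protein was not measured. RIPK1, the kinase that binds TRADD and TRAF2 at the TNF receptor, went from 38.2 and 37.3 CPM to 100 and 106 CPM (log2 fold change 1.45, adjusted p = 0.000953). IRAK2, a kinase between MYD88 and TRAF6, went from 5.65 and 8.27 CPM to 15.5 and 17.7 CPM (log2 fold change 1.27, adjusted p = 0.0107). Without replicate 1 of the unstimulated cells IRAK2 had a log2 fold change of 1.00, just under the threshold. TIFA, which brings TRAF6 together after sensing of bacterial sugars, went from 10.03 and 8.55 CPM to 19.7 and 22.8 CPM (log2 fold change 1.18, adjusted p = 0.00606). IRAK1, the gene of the list with the highest mean CPM, had 176 and 200 CPM before and 221 and 229 CPM after IFNγ (log2 fold change 0.26, adjusted p = 0.157).

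Of 34 inhibitor of apoptosis proteins, ubiquitin enzymes and deubiquitinases that work with TRAF proteins, 33 were tested. TAX1BP1, an adaptor that helps the deubiquitinase A20 reach TRAF6, was called lower, and 0 were called higher by edgeR or DESeq2. At an unadjusted p-value from edgeR under 0.05, 8 were higher and 11 lower. Called genes made up 3.03% of the 33 by edgeR, beside 7.28% of all tested genes in either direction. Without the fold change threshold 3 rose and 7 fell, beside 9.02% and 11.0% of all tested genes. The median log2 fold change was 0.04. TAX1BP1 had 186 and 214 CPM in unstimulated cells and 111 and 83.9 CPM after IFNγ (log2 fold change -1.03, standard error 0.16, adjusted p = 0.00588). It was -0.99 with upper quartile scaling, -0.92 without replicate 2 of the unstimulated cells and -0.87 without replicate 2 of IFNγ, each under the threshold in size. TNIP1, another A20 partner and the gene of the list with the highest mean CPM, had 253 and 270 CPM before and 309 and 339 CPM after (log2 fold change 0.31, adjusted p = 0.0941).

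**Figure D4:**
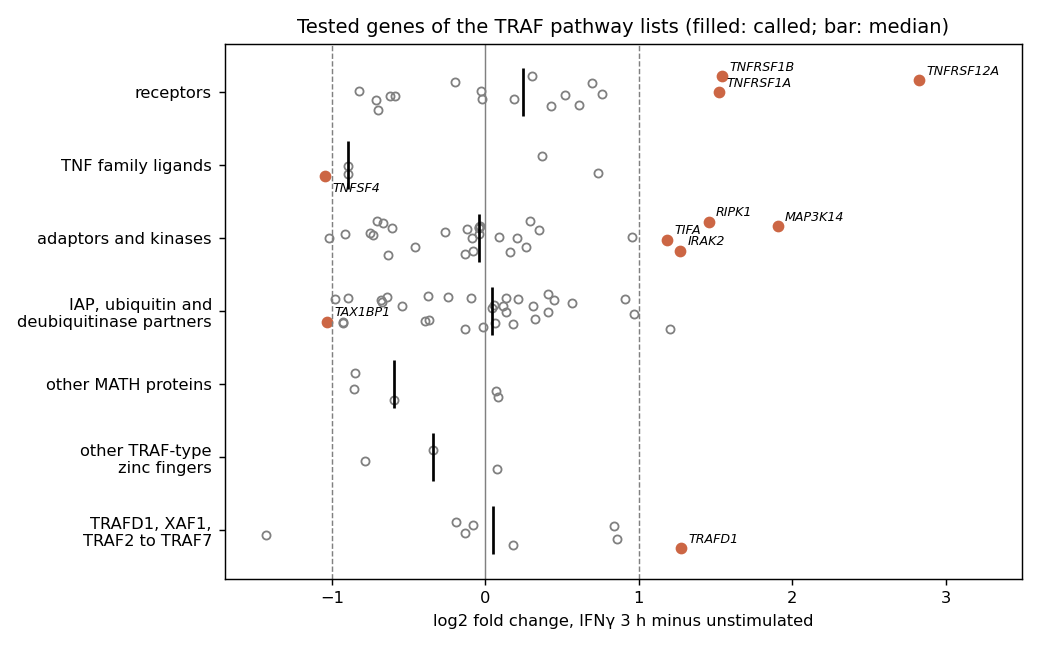
Log2 fold change after 3 h of IFNγ of each tested gene in the lists around the TRAF proteins and, in the bottom row, of the members, with filled points and names for called genes, open points for the others, a vertical bar at each list's median and dashed lines at -1 and 1 (vertical scatter is only for legibility). Called receptors and adaptors lie to the right at 1.18 to 2.83, and TNFSF4 and TAX1BP1 lie just beyond -1.

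Other proteins with the domains of the family were few. Of 6 further genes with a TRAF (MATH) domain 5 were tested, and 0 were called in either direction by edgeR or DESeq2, with 3 lower and 0 higher at an unadjusted p-value from edgeR under 0.05 and a median log2 fold change of -0.59. SPOP, SPOPL and TRIM37, which are parts of ubiquitin ligases and were named after their values were seen, fell without the fold change threshold. So did 11.0% of all tested genes. The log2 fold changes of the 3 were -0.59, -0.85 and -0.86. Their GC contents were 45.5%, 36.0% and 44.2%, and the part of the GC trend in these falls was not tested. MEP1A, a brush border metalloprotease, had the highest mean CPM, with 470 and 546 CPM before and 534 and 530 CPM after IFNγ (log2 fold change 0.07, adjusted p = 0.723). Of 4 further genes with a TRAF-type zinc finger, the feature that TRAFD1 and XAF1 share, 3 were tested and 0 were called by edgeR or DESeq2, with 2 lower and 0 higher at an unadjusted p-value from edgeR under 0.05 and a median log2 fold change of -0.34. PDZRN3, also named after its value was seen, fell from 53.7 and 52.8 CPM to 30.6 and 31.2 CPM (log2 fold change -0.78, adjusted p = 0.00705), as 11.0% of all tested genes fell. ZFTRAF1, listed under its older name CYHR1 and with the highest mean CPM over the 4 libraries though below PDZRN3 in unstimulated cells, had 51.9 and 43.9 CPM before and 53.0 and 48.2 CPM after IFNγ (log2 fold change 0.08, adjusted p = 0.736).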

How the data were processed

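RNA-seq of 4 Caco-2 libraries was analyzed. Per gene, raw counts without normalization or pooling were deposited. The submitters' processing notes name HISAT 0.5.1 and HTSeq 0.6.1p1, and the genome build and strand setting are not given in the sources used here. Gene positions, exon lengths and GC content came from GENCODE 44 mapped to GRCh37, which may differ from the annotation used for counting. The whole table was tested with edgeR 4.0.16 (quasi-likelihood, R 4.3.3, TMM scaling, default low-count filter), after a test on simulated data. Standard errors were derived from the fold change and F statistic, and values of single replicate pairs used a prior count of 2. Alternatives were DESeq2 1.42.0, its size factors, upper quartile and library size scaling, no filter, at least 10 counts in every library, the replicate block, no fold change threshold and each library left out. Removal of a loess trend on GC content and the length of the longest transcript, and DESeq2 without independent filtering, were chosen after seeing the data. The members and lists were chosen with earlier results of these data known. The text names the 9 members, called list genes, the gene of each list with the highest mean CPM over the 4 libraries, and the 5 nearest patterns to TRAFD1 and XAF1. XIAP, TNF, LTA, SPOP, SPOPL, TRIM37, PDZRN3, TNFAIP3, BIRC2, BIRC3 and MYD88 fall outside this rule and were chosen after their values were seen. The same holds for USP2, ZC3H12A, RNF31 and USP18, and for the markers COL1A1 and PTPRC. With 2 libraries per condition the number of libraries limits the precision. IKBKE, IKBKG, OTUD7B and PECAM1 could not be matched to a row by symbol and were not analysed here.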

Additional observations from a re-analysis of the deposited data

How the results depend on the processing

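TRAFD1 was called under all 14 alternatives run for it, with a log2 fold change from 1.10 to 1.32. TRAF4 stayed under the fold change threshold with an adjusted p-value under 0.05 in all 14, from 0.64 to 0.88. Deviations of same-numbered libraries from their condition's mean correlated across genes (r = 0.415), but 2 pairs and a shared number do not show that the libraries were paired. With the replicate block TRAF5 was called (-1.45, adjusted p = 0.00831), which makes 1 member lower, 1 gene of the ubiquitin list was called higher, and 492 genes were called higher and 896 lower against 427 and 652. The block changed no other member's call. TRAF5 was also called without a filter on low counts (-1.41), where the fit took infinite prior degrees of freedom, as in the fit without replicate 2 of IFNγ. With the GC and length trend removed TRAF6 was 0.20 (also 0.20 with the block), and 312 genes were called lower against 652. With the block as well, XAF1 (1.06) and TRAF5 (-1.24) were called, so that 2 members were higher and 1 lower, with 1 receptor lower and 1 ligand higher, and TRAF2 (-0.37, adjusted p = 0.0162) and TRAF7 (-0.30, adjusted p = 0.00502) fell without passing the fold change threshold. The cause was not tested. DESeq2 gave no adjusted p-value for XAF1 and TRAF5, and without its independent filtering they had 0.586 and 0.142. At least 10 counts in every library left TRAF5 untested.

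With no fold change threshold 1337 genes were higher and 1626 lower, with 2 members higher, 6 receptors higher and 1 lower, 4 adaptors lower, 3 ubiquitin partners higher and 7 lower, 3 MATH genes lower and 1 zinc finger gene lower. Ubiquitin partners called higher, 0 in the report, were 2 with upper quartile scaling and 1 with no filter, at least 10 counts, the GC trend removed, and the trend and block together. Those called lower were 0 with upper quartile scaling and 2 with library size only. Called ligands went from 1 to 0 with upper quartile scaling and with the GC trend removed. The 9 called list genes gave 126 values under the alternatives, of which 117 stayed called, 9 fell under a threshold and 0 changed direction.

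With each library left out in turn, 1 condition has a single library that is assumed to vary like the others. The log2 fold change ran from -0.32 to 1.41 for XAF1, from -0.25 to 0.015 for TRAF2, from -0.017 to 0.31 for TRAF3, from -0.30 to -0.056 for TRAF6, from -0.15 to -0.037 for TRAF7 and from -2.17 to -0.88 for TRAF5. Members called higher ran from 1 to 2 and lower from 0 to 1, all genes called lower from 554 to 1112 (the most without replicate 1 of IFNγ), receptors lower from 0 to 1, ligands lower from 0 to 1, adaptors lower from 0 to 1, and ubiquitin partners from 0 to 2 higher and from 0 to 4 lower.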

Other observations

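Some genes of the ubiquitin and adaptor lists that were not called are named here after their values were seen. They do not stand for their lists. Of the ubiquitin list, 3 genes rose and 7 fell without the fold change threshold. The 3 that rose were USP2, ZC3H12A and RNF31, with log2 fold changes of 0.97, 0.91 and 0.56. USP18 had 1.20 without passing the test (adjusted p = 0.0523 from edgeR). TNFAIP3, which encodes A20, the deubiquitinase that limits TRAF6 and RIPK1 signaling, had 55.7 and 59.4 CPM in unstimulated cells and 30.8 and 29.5 CPM after IFNγ (log2 fold change -0.93, adjusted p = 0.00437 from edgeR). BIRC2, the cIAP1 ligase that binds TRAF2, had 137 and 148 CPM before and 86.0 and 63.3 CPM after (log2 fold change -0.93, adjusted p = 0.00868). Its relative BIRC3, the cIAP2 ligase, had 10.8 and 9.53 CPM before and 6.32 and 6.41 CPM after, without passing the test (log2 fold change -0.68, adjusted p = 0.0658). MYD88, the adaptor above IRAK kinases and TRAF6, rose from 54.9 and 51.3 CPM to 109 and 96.9 CPM (log2 fold change 0.96, adjusted p = 0.00364). In TNFAIP3, BIRC2, BIRC3 and MYD88 the conditions did not overlap, as in 62.4% of all tested genes. Without the fold change threshold 9.02% of all tested genes rose and 11.0% fell. GC content was 47.8% for TNFAIP3, 38.0% for BIRC2, 35.8% for BIRC3 and 53.9% for MYD88. The part of the GC trend in these changes was not tested.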
